A study of Mus musculus with 6 samples.

Results

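Transcripts of glucose use were examined in mouse macrophages after a saturated fatty acid: 38 genes for glucose uptake, glycolysis, lactate and pyruvate handling, the pentose phosphate pathway and glycogen. They were chosen by name, with earlier results of these data known, so their shares below describe this list only. TPM is a share of all transcripts in the library, corrected for transcript length and scaled to the same total in each. A gene was kept where its mean over the 6 libraries was at least 1 TPM. All 38 met this, among 11551 of the 36333 listed genes that did. The cells were bone marrow derived macrophages of C57BL/6 genotype, grown for 7 days with M-CSF (macrophage colony-stimulating factor) at 10 ng/mL and plated at 250000 cells per well. In 3 libraries the cells had been given vehicle (EtOH, ethanol) and in 3 they had been given 100 µM stearic acid, a saturated fatty acid, each for 24 h. The labels name no gene deletion and no agent beyond these and the M-CSF of the culture. The series as a whole concerns saturated fatty acids, the inflammasome and IL-1β. Nothing in the labels ties the replicates to separate mice or cultures; the p-values therefore describe the spread among these 6 samples only, and part or all of it may be technical.

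Glycolysis splits glucose into pyruvate and yields ATP without oxygen, and lactate dehydrogenase turns pyruvate into lactate, which leaves the cell through monocarboxylate transporters. The pentose phosphate pathway branches off after the first phosphorylation and supplies NADPH for antioxidant defence and lipid synthesis, with ribose for nucleotides. Glycogen stores glucose as a branched polymer. Macrophages raise glycolysis when they are activated by microbial products, and they can use all of these routes.

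With stearic acid, mRNAs of most steps from aldolase to lactate export were higher, as were Slc2a1, the main glucose transporter of many cells, the oxidative enzyme Pgd and the glycogen branching enzyme Gbe1. Lower were Ldhb, the heart-type subunit of lactate dehydrogenase, Pfkfb4, a regulator of phosphofructokinase, and Pygl, which breaks glycogen down. Of the 38 genes, 18 (47.4%) rose, 3 (7.89%) fell and 17 did not pass, where 12.8% of all 11551 tested genes rose and 11.9% fell (24.7% together). The test was limma on log2(TPM + 1) with Benjamini-Hochberg adjustment over all tested genes at 0.05, and "rose" and "fell" are used only of genes that passed it. The stearic acid libraries lay wholly above the vehicle libraries in 22 of the 38 genes (57.9%, against 22.8% of all tested genes) and wholly below them in 3 (7.89%, against 21.7%; 44.6% of all tested genes lay apart one way or the other). The median log2 difference was 0.29 over the 38 genes and -0.03 over all tested genes. Leaving out vehicle replicate 2 or vehicle replicate 3 brought the rises to 6 in either case, and leaving out stearic acid replicate 3 to 11. Without stearic acid replicate 1 they numbered 26. Over all tested genes the rises, 1482 with every library, numbered 384, 483, 583 and 2217 in these fits, in the same order. Falls numbered 5 without stearic acid replicate 1, 1 without vehicle replicate 1 or stearic acid replicate 3, and 0 without vehicle replicate 2 or 3. Falls over all tested genes, 1374 with every library, numbered 2796, 385, 422, 165 and 136 in these fits, in the same order.

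**Figure D1:**
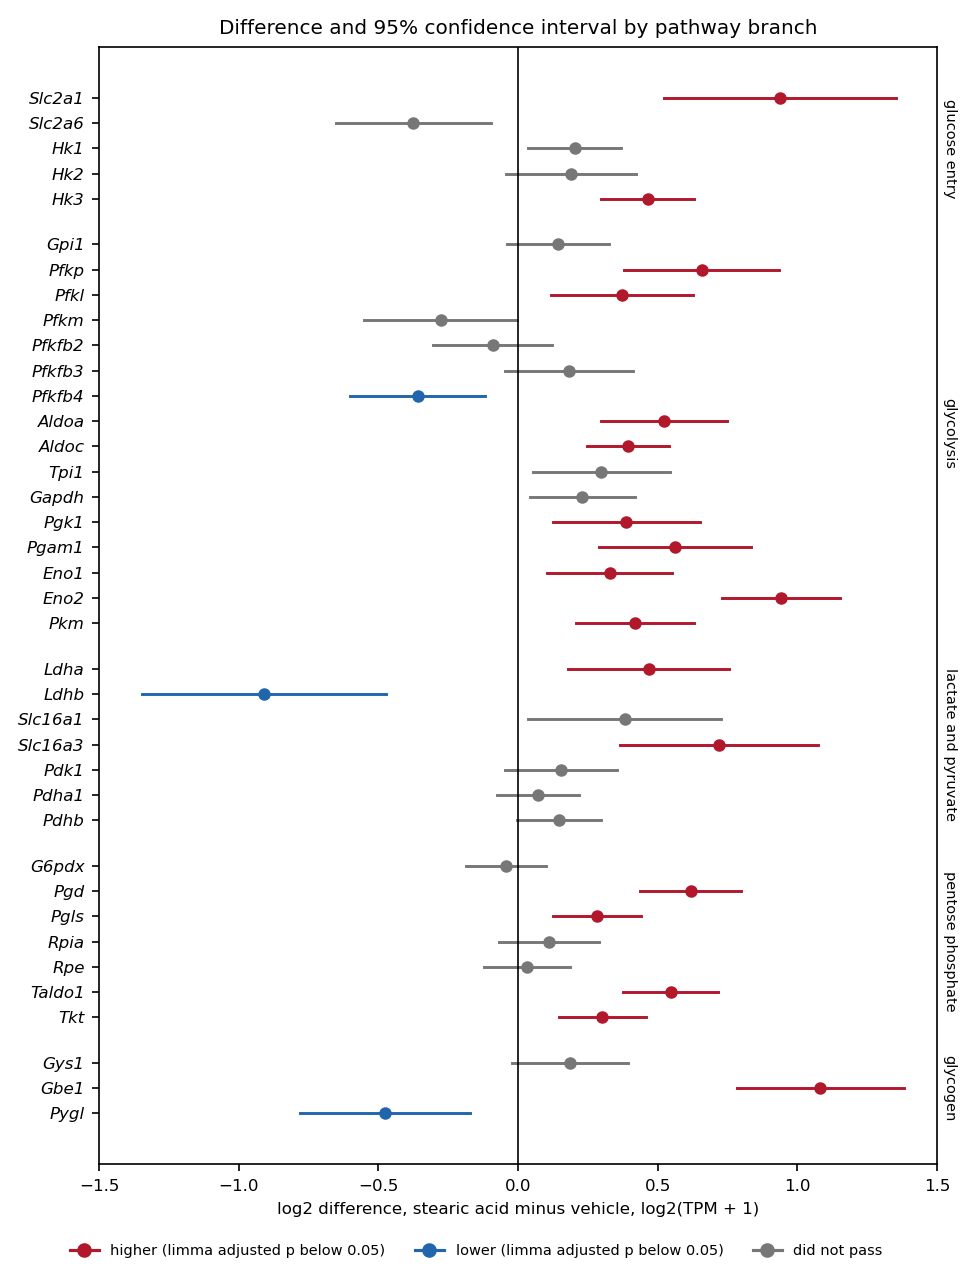
Log2 difference between stearic acid and vehicle (x axis, on the log2(TPM + 1) scale) for each of the 38 genes (y axis), grouped by branch; points are estimates, bars are 95% confidence intervals from limma, and colour marks the call. Red points (18 genes) lie right of 0 and reach 1.08 for Gbe1, and the blue points of Pfkfb4, Ldhb and Pygl lie left of it.

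Each library held 58.0 to 80.8 M reads, or read pairs, by the depth recovered from the tables, so 1 TPM stood for 19.1 to 27.7 of these per kilobase of transcript. All 8 macrophage markers checked were expressed, with a summed level of 32500 to 33400 TPM in vehicle and 23100 to 28700 TPM in stearic acid libraries, and 4 of the 8 fell while Cd68 rose. Of the markers of other cells, 0 of 6 dendritic, 0 of 7 lymphoid, 0 of 6 erythroid and mast cell and 0 of 6 stromal markers reached a mean of 1 TPM. Those listed at 0 in every library included Cd3e, Cd3g, Nkg7, Ncr1, Hbb-bs, Mcpt4, Cma1 and Lum. Of 8 neutrophil and progenitor markers only S100a8 reached 1 TPM; it rose (log2 0.81, limma adjusted p = 0.016), and that list summed to 2.5 to 4.71 TPM in vehicle and 6.39 to 7.22 TPM in stearic acid libraries. The part of these shifts in the results was not tested. In such bulk samples, fewer cells of a type and less RNA per cell cannot be told apart.

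The response was not equally large in the 3 stearic acid libraries. Among the 21 genes that passed, the change was largest in stearic acid replicate 2 for 19 genes and smallest in stearic acid replicate 1 for 18. The median absolute log2 change of these genes was 0.34, 0.72 and 0.53 in stearic acid replicates 1, 2 and 3. In Hk3, Aldoc and Pgls replicate 1 did not show the smallest change: it was smallest in replicate 3 for Hk3 and Pgls and in replicate 2 for Aldoc, whose 3 stearic acid libraries were nearly equal. A further 10 genes passed when replicate 1 was left out: Hk1, Hk2, Gpi1, Tpi1, Gapdh, Slc16a1, Pdk1 and Gys1 as higher and Slc2a6 and Pfkm as lower. Hk3, Aldoc, Eno2, Pgd, Taldo1 and Gbe1 passed whichever single library was left out. The share of all tested genes that did so was not counted.

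**Figure D2:**
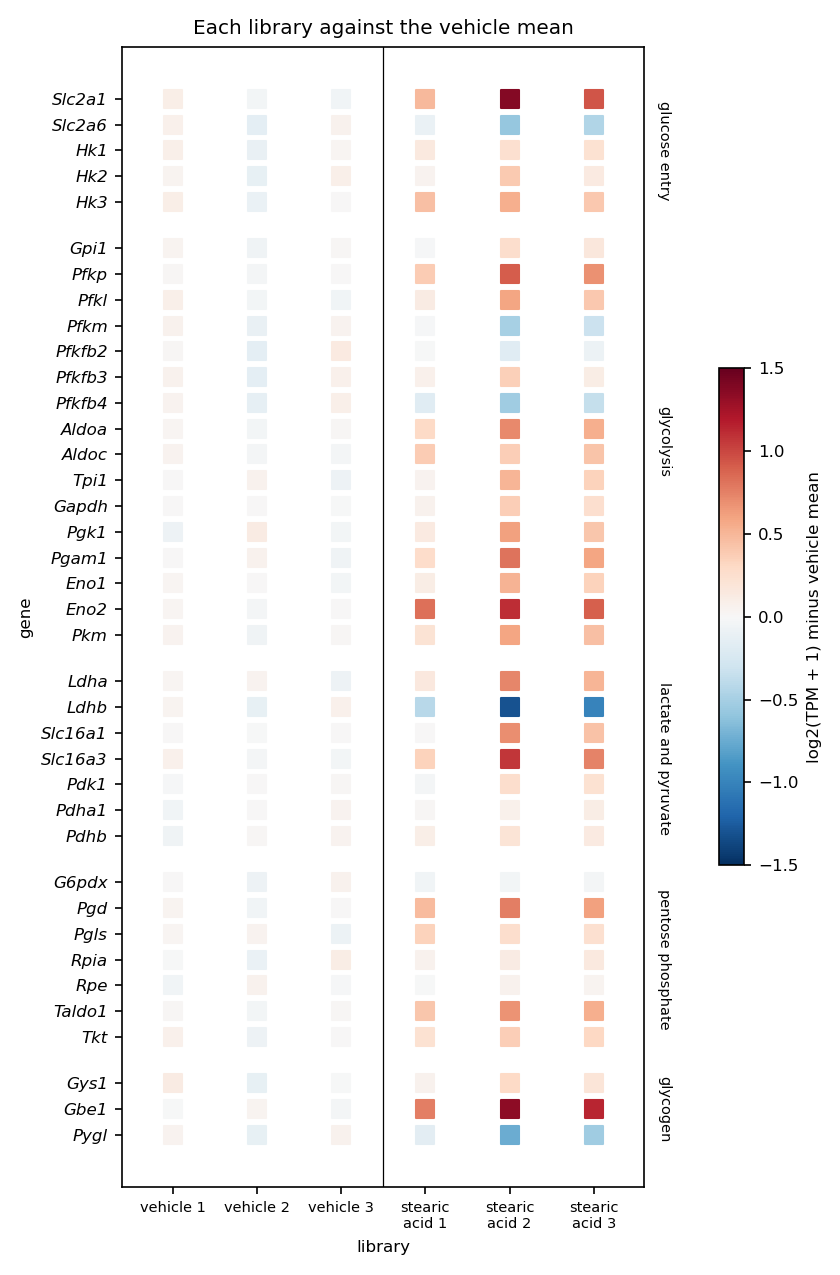
Log2(TPM + 1) of each library minus the vehicle mean (colour scale) for the 38 genes (y axis) in the 3 vehicle and 3 stearic acid libraries (x axis). For most genes that passed, colours are deepest in stearic acid replicate 2 and palest in replicate 1, as for Slc2a1 at 1.38 and 0.49, while G6pdx and Rpe stay near 0 in all 3.

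Of the 5 genes of glucose entry, 2 (40%) rose, 0 fell and 3 did not pass, with a median log2 difference of 0.20. Of all tested genes 12.8% rose and 11.9% fell. Rises numbered 1 without vehicle replicate 2 or 3 and 4 without stearic acid replicate 1, where 1 gene also fell. Slc2a1 (GLUT1; gene 20525, chromosome 4, 119108745 to 119137330, GRCm38) was at 54.6, 49.4 and 49.1 TPM in vehicle and at 72.0, 134 and 98.9 TPM in stearic acid replicates 1 to 3. Every stearic acid library was above every vehicle library, and the stearic acid values spread widely. The mean went from 51.0 ± 3.12 to 101.6 ± 31.1 TPM (SD, n = 3 per group), a ratio of 1.99 (log2 0.94, SE 0.18, limma adjusted p = 0.011). It lost its call without vehicle replicate 2 or 3 (largest limma adjusted p 0.065) or with no filter (0.060).

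Slc2a6 (GLUT6; gene 227659, chromosome 2, 27021363 to 27028000), a transporter found on lysosomes of macrophages, was at 78.7, 67.5 and 78.2 TPM in vehicle and at 69.6, 49.6 and 54.4 TPM with stearic acid. Stearic acid replicate 1 lay within the vehicle range, so the groups overlapped, and the difference did not pass (log2 difference -0.38, SE 0.12, limma adjusted p = 0.053). Its adjusted p ran from 0.00032 to 0.17 over the alternatives, and it passed as lower with median-of-ratios scaling, with quantile normalization, or without stearic acid replicate 1. Slc2a1 made up 40.6 ± 1.89% of the TPM of these 2 transporters in vehicle and 62.8 ± 11.2% with stearic acid (SD, n = 3). Thus Slc2a6 was the commoner mRNA in each vehicle library and Slc2a1 in each stearic acid library.

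Hexokinases phosphorylate glucose and trap it in the cell. Hk3 (gene 212032, chromosome 13, 55005985 to 55021475), an isozyme of myeloid cells, was at 161, 140.1 and 151 TPM in vehicle and at 206, 219 and 199 TPM with stearic acid. The groups were clear of each other and tight within themselves (log2 0.46, SE 0.07, limma adjusted p = 0.0052). Hk1, the isozyme of most tissues, was at 81.1 ± 5.70 against 93.4 ± 3.45 TPM and did not pass (log2 difference 0.20, limma adjusted p = 0.072), although the groups did not overlap. It passed with RPKM, median-of-ratios scaling or quantile normalization. Hk2, the inducible isozyme, was at 26.0 ± 2.07 against 29.9 ± 3.93 TPM, overlapped, and did not pass (log2 difference 0.19, 95% interval -0.04 to 0.42, limma adjusted p = 0.20). Hk3 was the commonest hexokinase mRNA in all 6 libraries, at 58.4 ± 0.532% of the TPM of the 3 genes in vehicle and 62.8 ± 1.08% with stearic acid.

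**Figure D3:**
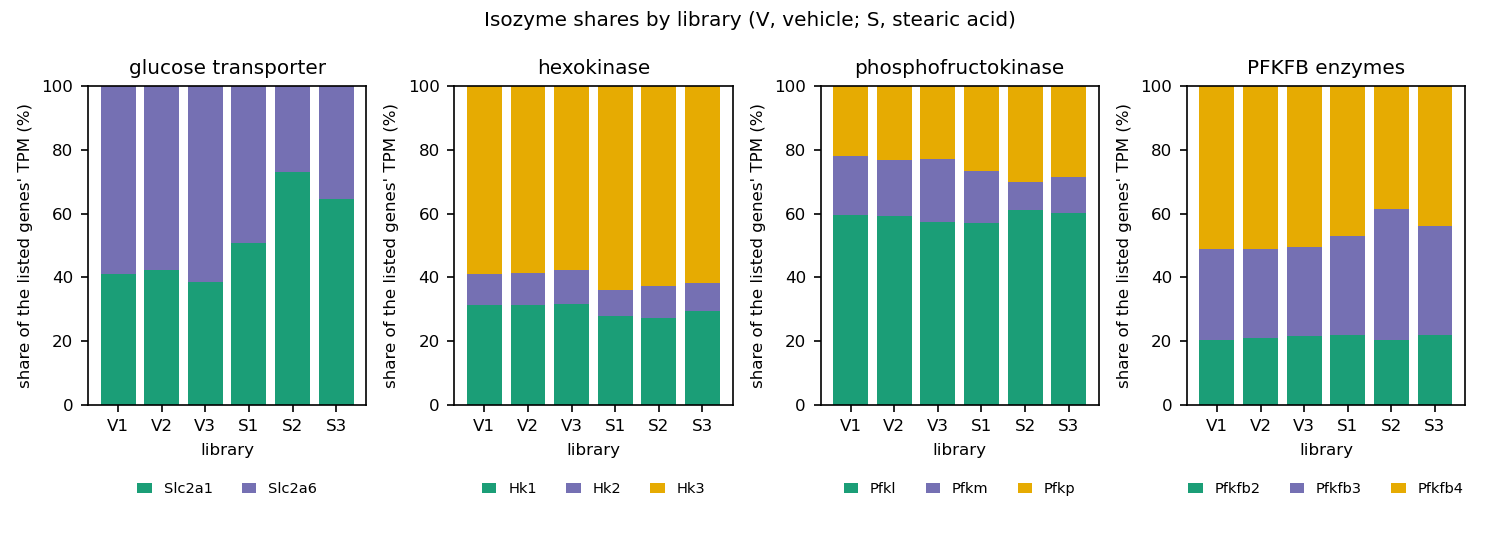
Share (percent, y axis) of the summed TPM of the listed genes of each family that each gene takes, for the 3 vehicle (V) and 3 stearic acid (S) libraries on the x axis. Slc2a1 goes from 38.5 to 42.3% in vehicle to 50.9 to 73.0% with stearic acid, Pfkm takes a smaller share in each stearic acid library than in any vehicle library, and Pfkfb4 takes 50.7 to 51.1% in vehicle and 38.6 to 46.9% with stearic acid.

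Glycolysis proper held 16 genes, of which 9 (56.2%) rose, 1 (6.25%) fell and 6 did not pass, against 12.8% and 11.9% of all tested genes. The median log2 difference of the 16 was 0.35. The count of rises was 2 when vehicle replicate 2 or 3 was left out and 5 when stearic acid replicate 3 was, and the count of falls was 2 with stearic acid replicate 1 left out and 0 with any other library left out. Gpi1, which turns glucose 6-phosphate into fructose 6-phosphate and so stands at the branch towards the pentose phosphate pathway, was at 542 ± 20.4 against 599.7 ± 58.0 TPM and did not pass (log2 difference 0.14, limma adjusted p = 0.21).

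Phosphofructokinase carries out a committed step of glycolysis, and 2 of its 3 genes rose. Pfkp, the platelet type (gene 56421, chromosome 13, 6579874 to 6649060), was at 22.1, 21.4 and 21.8 TPM in vehicle and at 28.5, 41.8 and 35.5 TPM with stearic acid. It rose 1.62-fold with no overlap (log2 0.66, SE 0.12, limma adjusted p = 0.0093), and lost its call without vehicle replicate 2 or 3 (up to 0.059). Its span overlaps that of Pitrm1, which was at 46.6 against 50.8 TPM and did not pass. Pfkl, the liver type and the commonest of the 3, rose from 56.4 ± 3.18 to 73.8 ± 11.9 TPM (log2 difference 0.37, SE 0.11, limma adjusted p = 0.042). That rise passed in only 1 of the 6 fits that left out a library, the one without stearic acid replicate 1 (largest limma adjusted p 0.14 in the others). It also did not pass with no filter, median-of-ratios scaling, quantile normalization or no intensity trend.

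Pfkm, the muscle type, was at 17.9 ± 1.30 against 14.7 ± 2.67 TPM, overlapped, and did not pass (log2 difference -0.28, limma adjusted p = 0.12; it passed as lower without stearic acid replicate 1). Its share of the phosphofructokinase TPM was 17.7 to 19.7% in vehicle and 8.91 to 16.4% with stearic acid, whereas that of Pfkp was 21.9 to 23.1% and 26.5 to 30.0%.

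The PFKFB enzymes make and remove fructose 2,6-bisphosphate, the activator of phosphofructokinase. Pfkfb4 (gene 270198, chromosome 9, 108988272 to 109032236) was at 27.4, 23.9 and 28.2 TPM in vehicle and at 23.2, 17.9 and 20.4 TPM with stearic acid. Each stearic acid library lay below each vehicle library, if only just for replicate 1, and the gene fell (log2 -0.36, SE 0.11, limma adjusted p = 0.039). Of the 6 fits that left out 1 library, only that without stearic acid replicate 1 kept this fall past the threshold (largest limma adjusted p 0.14), and it was also lost with no filter. Pfkfb3 was at 14.6 ± 1.30 against 16.8 ± 1.89 TPM, and Pfkfb2 was at 10.9 ± 1.11 against 10.2 ± 0.695 TPM. Neither passed (limma adjusted p = 0.20 and 0.50), with 95% intervals of the log2 difference of -0.045 to 0.41 and -0.30 to 0.12.

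The commonest isozymes from aldolase to pyruvate kinase are among the most abundant mRNAs of the set. Of the 11 genes, from any branch, with a mean of 500 TPM or more, 8 (72.7%) rose and 0 fell, and their median log2 difference was 0.42. Of all tested genes, at any level that met the filter, 12.8% rose and 11.9% fell. The shares among genes of like abundance were not counted. The 8 rises came down to 2, Pgd and Taldo1, when vehicle replicate 2 or 3 was left out, to 5 when vehicle replicate 1 was and to 4 when stearic acid replicate 3 was. Aldoa (gene 11674, chromosome 7, 126795234 to 126800994), which splits fructose 1,6-bisphosphate, was at 1100.4, 1049 and 1089.9 TPM in vehicle and at 1333, 1779 and 1575 TPM with stearic acid. It rose 1.45-fold without overlap (log2 0.52, SE 0.10, limma adjusted p = 0.0098) and lost its call without vehicle replicate 2 or 3 (up to 0.059) or with no filter. Its minor isozyme Aldoc was at 40.6, 38.5 and 38.4 TPM in vehicle and at 51.4, 51.0 and 52.9 TPM with stearic acid. That change was even across the 3 libraries (log2 0.39, SE 0.065, limma adjusted p = 0.0059).

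Tpi1, which interconverts the triose phosphates, was at 737 ± 37.4 against 914 ± 143 TPM, overlapped, and did not pass (log2 difference 0.30, limma adjusted p = 0.074; it passed without stearic acid replicate 1). Its span overlaps that of Spsb2, which rose (40.2 against 50.02 TPM, log2 0.305, limma adjusted p = 0.031). Gapdh, which oxidises glyceraldehyde 3-phosphate and is often used as a reference gene, was at 564, 563 and 560.1 TPM in vehicle and at 586, 729 and 672 TPM with stearic acid. The vehicle libraries were nearly identical and all 3 stearic acid libraries lay above them, yet the difference did not pass (log2 difference 0.23, SE 0.08, limma adjusted p = 0.071; it passed with quantile normalization or without stearic acid replicate 1). Transcripts of 79 other annotated genes match Gapdh at 95% identity or more over at least 150 bases, so its level rests on how the counting treated these copies. The copies listed in the tables summed to 0.138% of the Gapdh level.

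Pgk1, which makes the first ATP of the pathway, rose from 915 ± 67.1 to 1206 ± 199 TPM (log2 difference 0.39, SE 0.12, limma adjusted p = 0.040). Pgam1, the phosphoglycerate mutase (gene 18648, chromosome 19, 41911871 to 41918665), was at 674, 702 and 645 TPM in vehicle and at 818, 1185 and 1012 TPM with stearic acid. It rose 1.49-fold with no overlap (log2 0.56, SE 0.12, limma adjusted p = 0.014), the largest ratio among the 8 commonest isozymes from Aldoa to Ldha. Eno1, the enolase of most tissues, rose from 1594 ± 44.3 to 2014 ± 287 TPM (log2 difference 0.33, SE 0.10, limma adjusted p = 0.042). Pgk1 and Eno1 each passed in 1 of the 6 fits that left out a library, the one without stearic acid replicate 1 (largest limma adjusted p 0.14 for each in the others), and did not pass with RPKM, median-of-ratios scaling, no filter or no intensity trend. Pgam1 lost its call without vehicle replicate 2 or 3 (up to 0.073) or with no filter.

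Eno2, the enolase best known from neurons, was a minor transcript with the clearest change by p-value of the 38. It was at 5.62, 5.34 and 5.48 TPM in vehicle and at 10.5, 13.0 and 11.02 TPM with stearic acid. The groups were far apart relative to their spread, with a ratio of means of 2.10 (log2 0.94, SE 0.09, limma adjusted p = 0.00066). Eno2 supplied 0.343 ± 0.011% of enolase TPM in vehicle and 0.570 ± 0.034% with stearic acid, so nearly all enolase mRNA was Eno1 in both groups. Eno2, Tpi1 and Gapdh lie close together on chromosome 6, at 124760053 to 124769673, 124810586 to 124814158 and 125161852 to 125166467.

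Pkm, pyruvate kinase (gene 18746, chromosome 9, 59656576 to 59679372), was the most abundant of the 38 mRNAs, at 2480.35, 2289 and 2424 TPM in vehicle and at 2796, 3599 and 3264 TPM with stearic acid. It rose 1.34-fold without overlap (log2 0.42, SE 0.09, limma adjusted p = 0.017), and lost its call when either of vehicle replicates 2 and 3 or stearic acid replicate 3 was left out (up to 0.070) or with no filter. The tables give 1 value per gene and do not separate its M1 and M2 splice forms.

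**Figure D4:**
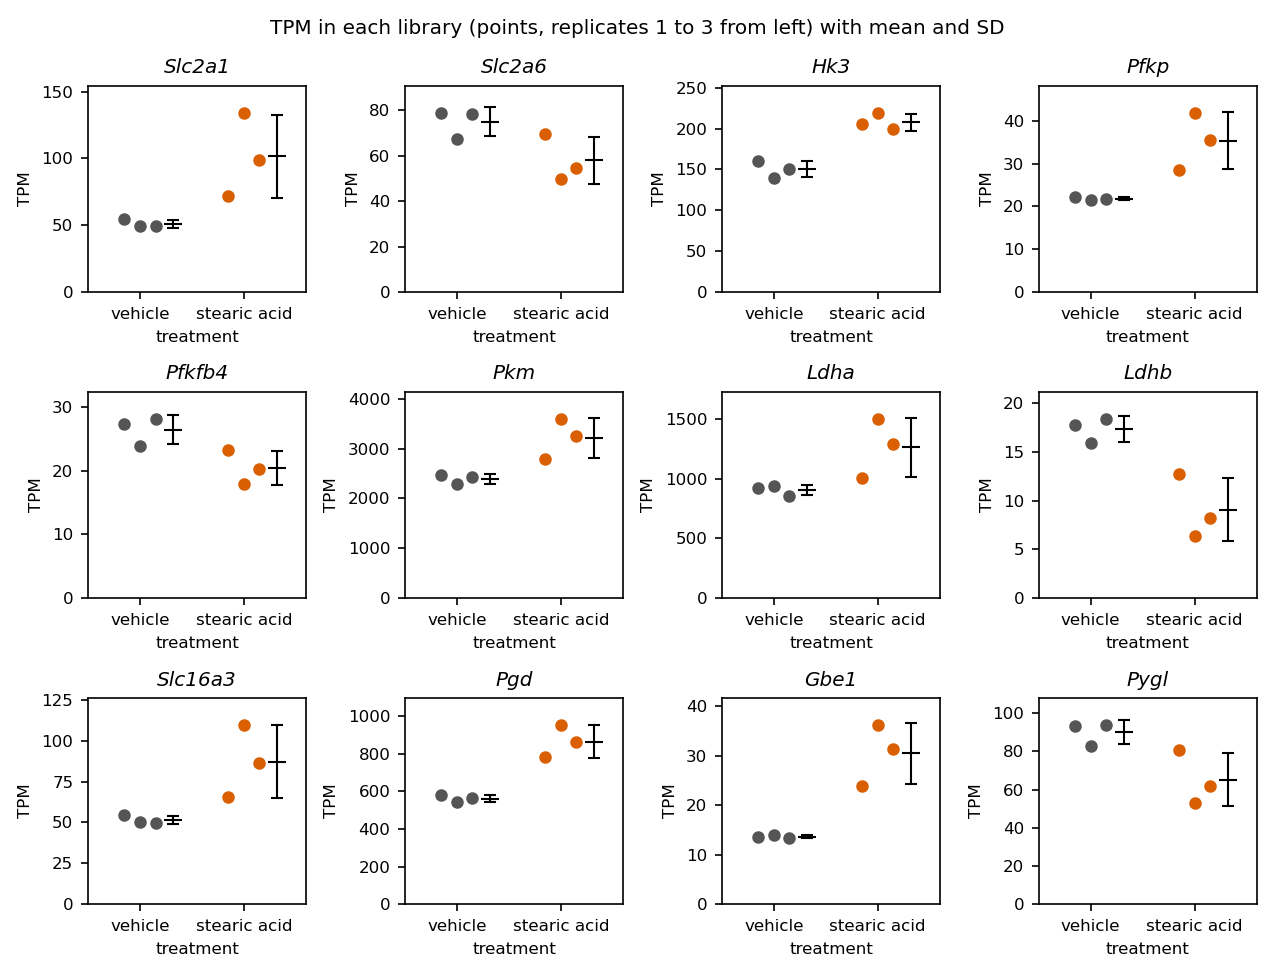
TPM (y axis, from 0) of 12 genes in each of the 3 vehicle (grey) and 3 stearic acid (orange) libraries, with the mean and SD of each group beside the points. Ldha rises from 903 to 1266 TPM while Ldhb falls from 17.3 to 9.08 TPM, and Slc2a6 is the one panel in which the groups overlap.

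Of the 7 lactate and pyruvate genes, 2 (28.6%) rose, 1 (14.3%) fell and 4 did not pass, with a median log2 difference of 0.15. Of all tested genes 12.8% rose and 11.9% fell, so the share that fell was near that of all genes. Ldha (gene 16828, chromosome 7, 46842274 to 46855627), whose subunit favours lactate formation, was at 919, 937 and 854 TPM in vehicle and at 1009, 1502 and 1287 TPM with stearic acid. It rose 1.401-fold with no overlap (log2 0.47, SE 0.13, limma adjusted p = 0.030). Ldhb (gene 16832, chromosome 6, 142490249 to 142507957), whose subunit favours the return of lactate to pyruvate, was at 17.8, 15.9 and 18.4 TPM in vehicle and at 12.7, 6.37 and 8.17 TPM with stearic acid. It had the largest fall of the 38 genes, and every stearic acid library was below every vehicle library (log2 -0.91, SE 0.19, limma adjusted p = 0.014). The ratio of Ldha to Ldhb TPM was 46.5 to 59.0 in vehicle and 79.4, 236 and 158 in stearic acid replicates 1, 2 and 3.

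The opposite directions of the 2 subunit genes held in each stearic acid library, but neither call held in every fit. Ldha passed only without stearic acid replicate 1 or 2 among the fits that left out a library (largest limma adjusted p 0.12), and not with median-of-ratios scaling. Ldhb lost its call without vehicle replicate 2 or 3 (up to 0.071). Rises in this branch thus numbered 0 without vehicle replicate 2 or 3, 1 with vehicle replicate 1 or stearic acid replicate 3 left out, and 4 with replicate 1 of stearic acid left out. Both failed with no filter on low values.

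Promoter sequence is shown for this pair, whose genes went opposite ways, and for 2 further risers, Pgk1 and Pgam1, which were picked after the motif matches were seen, as examples of promoters that hold the hypoxia response core. Of the 18 genes that rose, 10 hold no such core at any of the starts examined, among them Taldo1, Pgd, Eno1 and Aldoc. The starts examined need not be all of them, as the span given above for Ldha begins upstream of each of its windows. Shown are the 250 bases before an annotated start, from RefSeq (GRCm38.p6), 5′ to 3′ on the gene's strand. The windows are chr7:46845554-46845803 (plus strand, 1 of 2 starts examined for Ldha), chr6:142507958-142508207 (minus strand, Ldhb), chrX:106186850-106187099 (plus, Pgk1) and chr19:41911621-41911870 (plus, Pgam1). Capitals mark matches on either strand to ACGTG, the core of the hypoxia response element, to CACGTG, the E-box, which contains that core, and to TGACNNNGC, the core of the antioxidant response element.
Ldha: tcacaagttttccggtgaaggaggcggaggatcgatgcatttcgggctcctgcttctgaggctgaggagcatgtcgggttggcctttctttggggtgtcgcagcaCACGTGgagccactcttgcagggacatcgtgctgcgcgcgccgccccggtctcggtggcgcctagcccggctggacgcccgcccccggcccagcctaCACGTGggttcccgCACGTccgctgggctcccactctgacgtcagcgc
Ldhb: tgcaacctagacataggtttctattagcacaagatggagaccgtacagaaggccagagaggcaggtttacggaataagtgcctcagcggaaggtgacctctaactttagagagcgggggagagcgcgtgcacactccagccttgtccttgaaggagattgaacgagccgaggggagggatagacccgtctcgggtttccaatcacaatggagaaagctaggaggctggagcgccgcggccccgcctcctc
Pgk1: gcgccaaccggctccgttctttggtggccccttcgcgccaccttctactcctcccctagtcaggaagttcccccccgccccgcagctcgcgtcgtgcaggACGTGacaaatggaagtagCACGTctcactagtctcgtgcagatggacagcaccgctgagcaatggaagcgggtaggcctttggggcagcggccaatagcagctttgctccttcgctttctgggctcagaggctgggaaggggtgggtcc
Pgam1: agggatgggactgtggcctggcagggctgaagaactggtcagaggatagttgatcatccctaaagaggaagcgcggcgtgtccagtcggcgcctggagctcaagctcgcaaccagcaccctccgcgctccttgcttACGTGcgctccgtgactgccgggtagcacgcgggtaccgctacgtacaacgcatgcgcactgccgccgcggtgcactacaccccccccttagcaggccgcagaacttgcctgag
The Ldha window held 2 E-boxes and 1 further hypoxia response core, while the window of its other examined start held none of the 3 motifs. The Pgk1 window held 2 such cores and the Pgam1 window held 1, while the Ldhb window held no match to these letters. Over all 38 genes, 19 of 54 promoters (35.2%) held the hypoxia response core, against 16.6% of 32851 promoters of the same length. The core stood before 8 of the 18 genes that rose, 1 of the 3 that fell and 6 of the 17 that did not pass. These count a gene if any of its examined starts held the core, so the share of single promoters is no background for them. Windows of neighbouring starts can overlap, and the same Aldoa site was counted in more than 1 window. The antioxidant core was in 7.41% of the promoters of these genes against 10.2% of all, and the E-box in 9.26% against 6.02%. A match is a description of the letters and not a bound site, and no binding was measured.

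Slc16a3 (MCT4; gene 80879, chromosome 11, 120948484 to 120959000), the main lactate exporter of glycolytic cells, was at 54.3, 50.4 and 49.8 TPM in vehicle and at 65.4, 109.7 and 86.6 TPM with stearic acid. It rose 1.69-fold without overlap (log2 0.72, SE 0.16, limma adjusted p = 0.015), and lost its call without vehicle replicate 2 or 3 (up to 0.073) or with no filter. Its span overlaps Csnk1d, which was at 96.3 against 96.9 TPM and did not pass. Slc16a1 (MCT1), which carries lactate in either direction, was at 10.6 TPM in each vehicle library and at 10.7, 17.9 and 14.8 TPM with stearic acid. Replicate 1 was thus barely above the vehicle level while the other 2 were above it, and the gene did not pass (log2 difference 0.38, SE 0.15, limma adjusted p = 0.095; it passed without stearic acid replicate 1).

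None of the 3 genes at the gate of pyruvate into mitochondria passed. Pdk1, the kinase that switches pyruvate dehydrogenase off, was at 33.3 ± 0.385 against 37.3 ± 4.16 TPM, with stearic acid replicate 1 at 32.5 TPM, and did not pass (log2 difference 0.15, 95% interval -0.046 to 0.355, limma adjusted p = 0.22). Pdha1 and Pdhb, the subunits of the first enzyme of the complex, did not pass either (limma adjusted p = 0.44 and 0.13), at 73.9 ± 2.77 against 77.7 ± 2.40 TPM and at 98.7 ± 4.15 against 109.3 ± 4.47 TPM. Their 95% intervals of the log2 difference were -0.08 to 0.22 and -0.005 to 0.30. The span of Pdha1 overlaps that of Map3k15, which fell from 5.27 to 3.83 TPM (limma adjusted p = 0.032).

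In the pentose phosphate pathway 4 of 7 genes (57.1%) rose, 0 fell and 3 did not pass, against 12.8% and 11.9% of all tested genes that rose and fell. The median log2 difference of the 7 was 0.28. Without either of vehicle replicates 2 and 3 or stearic acid replicate 3 the rises numbered 2, which were Pgd and Taldo1. G6pdx, the entry enzyme and main point of control of the oxidative branch, was at 270, 254 and 282 TPM in vehicle and at 258, 260.4 and 262 TPM with stearic acid. The stearic acid values lay within the vehicle range, and the gene did not pass (log2 difference -0.04, 95% interval -0.19 to 0.10, limma adjusted p = 0.62). With RPKM its difference was 0.00033 on the log2 scale, on the other side of 0 and also not passing. Its span overlaps that of Ikbkg, which rose (23.3 against 30.2 TPM, log2 0.36, limma adjusted p = 0.015), and reads of overlapping genes may not be assigned with certainty.

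Pgls, the lactonase that follows G6pdx (gene 66171, chromosome 8, 71592184 to 71596267), was at 87.4, 88.6 and 80.0 TPM in vehicle and at 109, 102 and 100.5 TPM with stearic acid. It rose by a small amount without overlap (log2 0.28, SE 0.07, limma adjusted p = 0.023), and lost its call without any 1 of the 3 vehicle libraries or stearic acid replicate 3 (up to 0.090) or with no filter. Pgd, the second NADPH-yielding enzyme (gene 110208, chromosome 4, 149149991 to 149166705), was at 579.7, 543 and 565 TPM in vehicle and at 783, 955 and 861 TPM with stearic acid. It rose 1.54-fold, with each stearic acid library well above the vehicle range (log2 0.62, SE 0.08, limma adjusted p = 0.0024). The ratio of Pgd to G6pdx TPM was 2.01 to 2.15 in vehicle and 3.03, 3.67 and 3.29 with stearic acid, and each stearic acid library was above each vehicle library.

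In the non-oxidative branch, which links pentoses back to glycolysis, both transferases rose and the isomerase and epimerase did not pass. Taldo1, transaldolase (gene 21351, chromosome 7, 141392160 to 141402976), was at 981, 942 and 982 TPM in vehicle and at 1295, 1543 and 1416 TPM with stearic acid. It rose 1.46-fold without overlap (log2 0.55, SE 0.075, limma adjusted p = 0.0030). Tkt, transketolase, rose from 382 ± 20.3 to 470.3 ± 22.6 TPM (log2 difference 0.30, SE 0.07, limma adjusted p = 0.018), and lost its call when either of vehicle replicates 2 and 3 or stearic acid replicate 3 was left out (up to 0.074) or with no filter. Rpia, the ribose 5-phosphate isomerase, was at 18.8 ± 1.44 against 20.4 ± 0.648 TPM and did not pass (log2 difference 0.11, 95% interval -0.07 to 0.29, limma adjusted p = 0.33). Rpe, the epimerase, was at 33.7 ± 1.395 against 34.5 ± 0.958 TPM and did not pass (log2 difference 0.03, 95% interval -0.12 to 0.18, limma adjusted p = 0.76), and its span overlaps that of Kansl1l, which fell from 3.5998 to 2.31 TPM (limma adjusted p = 0.025).

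Of the 3 glycogen genes, 1 (33.3%) rose, 1 (33.3%) fell and 1 did not pass, against 12.8% and 11.9% of all tested genes that rose and fell. Gbe1, which adds the branches of glycogen (gene 74185, chromosome 16, 70313949 to 70569720), was at 13.6, 14.0 and 13.4 TPM in vehicle and at 23.9, 36.2 and 31.3 TPM with stearic acid. The lowest stearic acid library was far above the highest vehicle library, and the ratio of means of 2.23 was the largest of the 38 genes (log2 1.08, SE 0.13, limma adjusted p = 0.0019). Gys1, which lengthens the chains, was at 22.5, 19.0 and 20.7 TPM in vehicle and at 21.6, 25.7 and 23.8 TPM with stearic acid. Its groups overlapped and it did not pass (log2 difference 0.19, 95% interval -0.02 to 0.395, limma adjusted p = 0.16), but it passed as higher without stearic acid replicate 1 (limma adjusted p = 0.043).

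Pygl, the phosphorylase that releases glucose from glycogen (gene 110095, chromosome 12, 70190815 to 70227683), was at 93.5, 82.8 and 93.9 TPM in vehicle and at 80.5, 53.2 and 62.0 TPM with stearic acid. Stearic acid replicate 1 lay just under the lowest vehicle library and the others well under it, and the gene fell (log2 -0.48, SE 0.135, limma adjusted p = 0.034). It did not pass without any 1 of the 3 vehicle libraries or stearic acid replicate 3 (up to 0.12) or with no filter. The ratio of Gbe1 to Pygl TPM was 0.142 to 0.169 in vehicle and 0.296, 0.681 and 0.504 with stearic acid, and that of Gbe1 to Gys1 was 0.603 to 0.739 and 1.11 to 1.41.

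Summed over the 38 genes, the TPM was 12923, 12608 and 12599 in vehicle and 14615, 18855 and 16939 with stearic acid, or 1.27% and 1.68% of all TPM. Every stearic acid library was above every vehicle library. Glycolysis supplied most of it, at 8694 ± 113 against 11418 ± 1584 TPM, and the pentose phosphate genes went from 2319 ± 68.8 to 3174 ± 232 TPM. Glycogen genes summed to 124 ± 7.54 against 119 ± 5.73 TPM, since the higher Gbe1 and lower Pygl lay on opposite sides. These sums rest on a few abundant mRNAs, above all Pkm, and carry no test.

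A further 93 genes of the same pathways, outside the 38, were listed, also with earlier results of these data known. Of these, 65 passed the filter, 27 lay below it and 1 name had no entry. Of the 65, 12 (18.5%) rose, 5 (7.69%) fell and 48 did not pass, against 12.8% and 11.9% of all tested genes. The median log2 difference of the 65 was -0.025, close to that of all genes. Leaving out vehicle replicate 1, 2 or 3 left 6, 1 and 1 rises, and leaving out stearic acid replicate 3 left 3. The falls numbered 18 without stearic acid replicate 1, 2 when replicate 2 of that group was left out, and 0 when replicate 3 of it or any vehicle library was.

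Among 9 genes of sugar transport and phosphorylation, Adpgk, the ADP-dependent glucokinase (28.3 ± 1.63 against 38.2 ± 5.32 TPM, log2 0.41, limma adjusted p = 0.024), and Galk1, the galactokinase (30.8 ± 2.25 against 42.6 ± 6.21 TPM, log2 0.45, limma adjusted p = 0.020), rose. Slc2a9, a urate transporter of the glucose transporter family, fell (15.4 ± 1.59 against 10.5 ± 1.76 TPM, log2 -0.52, limma adjusted p = 0.020). Among 11 of glycolysis and gluconeogenesis, Tigar, which removes fructose 2,6-bisphosphate, rose by 0.36 on the log2 scale (limma adjusted p = 0.042), as did Pgp, a phosphatase of glycolytic side products, by 0.29 (0.035). Among 13 of lactate and pyruvate, Pdp1, the phosphatase that switches pyruvate dehydrogenase on, rose (log2 0.23, limma adjusted p = 0.045) and the monocarboxylate transporter Slc16a7 fell (log2 -0.43, limma adjusted p = 0.040). Of 5 pentose phosphate genes only Prps2, which makes phosphoribosyl pyrophosphate, passed, and it fell (log2 -0.29, limma adjusted p = 0.034). In the order of these lists, 22.2%, 18.2%, 7.69% and 0% of the genes rose, and 11.1%, 0%, 7.69% and 20% fell. Of all tested genes 12.8% rose and 11.9% fell, so the lactate and pyruvate list lay below these shares in each direction.

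Of 19 further glycogen genes, 4 (21.1%) rose and 1 (5.26%) fell, against 12.8% and 11.9% of all tested genes. Pgm2 (gene 72157), of the phosphoglucomutase family, was at 36.7, 35.3 and 35.0 TPM in vehicle and at 43.6, 58.1 and 51.4 TPM with stearic acid (log2 0.50, limma adjusted p = 0.012). Ppp1r3e, a subunit that brings a phosphatase to glycogen, rose by 0.51 (limma adjusted p = 0.014), Nhlrc1 (malin), a ubiquitin ligase of glycogen metabolism, by 0.49 (0.035), and Gaa, the lysosomal glucosidase, by 0.33 (0.027). Nhlrc1 lay near the filter, at 2.20, 1.31 and 1.73 TPM in vehicle and at 2.33, 3.07 and 3.16 TPM with stearic acid. Phka2, a regulatory subunit of phosphorylase kinase, fell (log2 -0.32, limma adjusted p = 0.037). Pygb, the brain-type phosphorylase, lay lower in all 3 stearic acid libraries but did not pass (log2 difference -0.30, limma adjusted p = 0.051).

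Of 8 regulators of glucose genes, 3 (37.5%) rose and 1 (12.5%) fell, against 12.8% and 11.9% of all tested genes. Atf4, a transcription factor of the integrated stress response, was at 155, 158 and 146 TPM in vehicle and at 268, 438 and 346 TPM with stearic acid, with no overlap (log2 1.17, SE 0.15, limma adjusted p = 0.0022). Myc, a transcription factor of growth, was at 15.3, 14.9 and 12.1 TPM in vehicle and at 18.8, 52.7 and 37.2 TPM with stearic acid (log2 1.19, SE 0.30, limma adjusted p = 0.023). The spread of Myc between the stearic acid libraries was wide, and replicate 1 was only just above vehicle. Txnip, a glucose-responsive inhibitor of glucose uptake, fell from 516 ± 32.5 to 381 ± 61.5 TPM (log2 difference -0.45, limma adjusted p = 0.023), while its relative Arrdc4 rose (log2 0.39, limma adjusted p = 0.021). Hif1a mRNA, whose protein is mostly controlled after translation, was at 54.3 ± 1.26 against 60.7 ± 4.08 TPM and did not pass (log2 difference 0.155, limma adjusted p = 0.14). Nfe2l2, which encodes the antioxidant regulator NRF2, was at 157 ± 3.61 against 145 ± 7.45 TPM and did not pass (log2 difference -0.11, limma adjusted p = 0.24).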

How the data were processed

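Polyadenylated RNA was sequenced from 3 vehicle and 3 stearic acid libraries, made with a stranded TruSeq mRNA kit, per the labels' protocols. Per the file headers, the authors deposited a TPM and an RPKM value for each of 36333 genes per library. The submitters' processing notes name DRAGEN, version not given, and the build GRCm38 (mm10); for the annotation, the counting rule and its use of strand, the entry is "not given in the sources used here". TPM is a share, so each change is relative to all other transcripts.

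The 38 genes and the other lists were chosen with earlier results of these data known. TPM was taken as log2(TPM + 1), which understates changes of low genes, for genes averaging 1 TPM or more. These values were fitted with limma 3.58.1 in R 4.3.3 (intensity trend, treatment as the only term, Benjamini-Hochberg adjustment over 11551 genes, threshold 0.05). A test on simulated data came first, with 200 genes changed. It recovered 8% of 1.25-fold, 78% of 1.5-fold, 86% of 2-fold and 100% of 4-fold changes. More genes passed in the real data, so recovery there can differ. A gene that did not pass may still have changed by a small amount. Depth was recovered from RPKM steps, where 72.3 to 77.4% of checked values were whole within 0.02 reads, so no counts were rebuilt. Copies were searched with blastn 2.17.0 (at least 95% identity over 150 bases); coordinates and promoters are RefSeq's, on GRCm38.p6, and 35337 gene numbers matched. Genes named with values were all that passed, the members at much-studied steps, and the other pathway genes that passed; the remaining members, Hif1a, Nfe2l2 and Pygb were added after their values were seen. Alternatives covered the pseudocount, the filter, RPKM, 2 other scalings, the replicate number as a block, no intensity trend, and leaving out each library.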

Additional observations from a re-analysis of the deposited data

How the results depend on the processing

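The direction of all 38 genes held under all 14 alternatives, except for G6pdx with RPKM (0.00033, not passing), and the median of all genes stayed between -0.056 and 0.021 on the log2 scale. A pseudocount of 0.1 or a filter at 5 TPM changed none of the 38 calls. With no filter, 672 genes in all rose and 355 fell; of the 38, 7 rose and 0 fell, with rises of 1 in glucose entry, 3 in glycolysis, 0 in lactate and pyruvate and 2 in the pentose phosphate pathway, and falls of 0 in glycolysis, 0 in lactate and pyruvate and 0 in glycogen; of the other pathway genes, 3 rose and 1 fell. More genes were tested there, 21632. With median-of-ratios scaling 1 glucose entry gene fell and 1 lactate and pyruvate gene rose, where 1835 of all tested genes rose and 1467 fell. With quantile normalization 1 glucose entry gene and 10 other pathway genes fell, where 1679 of all tested genes rose and 1776 fell. The main fit had 1482 rises and 1374 falls over all tested genes. The check used showed no clear pairing by replicate number. Same-numbered deviations correlated at 0.07, 0.29 and 0.04, and not every sample correlated best with its own number. The check cannot exclude pairing, as the deviations of 3 samples from their own mean are not independent. With the replicate block, 20 of the 38 rose and 5 fell. Tpi1 and Slc16a1 joined the rises and Slc2a6 and Pfkm the falls, with falls of 1 in glucose entry and 2 in glycolysis. Of the other pathway genes, 11 rose and 12 fell. Over all tested genes 1641 rose and 1997 fell with the block. Leaving out 1 library at a time gave 384 to 2217 rises and 136 to 2796 falls over all genes, 6 to 26 and 0 to 5 over the 38, 1 to 4 and 0 to 1 in glucose entry, 2 to 12 and 0 to 2 in glycolysis, 0 to 4 and 0 to 1 in lactate and pyruvate, 2 to 4 and 0 to 0 in the pentose phosphate pathway, 1 to 2 and 0 to 1 in glycogen, and 1 to 15 and 0 to 18 among the other pathway genes. What caused these changes in the calls was not tested.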
